A study of Homo sapiens with 4 samples.

Results

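The genes of the 26S proteasome and its regulators were examined in K562 cells expressing the fusion gene RUNX1::ERG or carrying the empty vector. The members were the protein-coding genes whose symbol is PSM followed by a letter from A to G and a digit, which gave 48 of the 25702 genes counted. K562 is an established human cell line from chronic myeloid leukemia, and the 4 libraries comprised 2 biological replicates of cells transfected with the empty LeGO-iG2 plasmid and 2 transfected with the same plasmid carrying RUNX1::ERG, with no other treatment. The fusion was introduced by transient transfection, so cells that took up no plasmid could contribute RNA to both groups. The paper reports that its protocol transfected most K562 cells, judged by the co-expressed green fluorescent protein, but gives no share for these libraries. Poly(A)-enriched RNA was sequenced (whole transcriptome sequencing, WTS) and the reads were counted per gene. Symbols that begin alike but name other things were left out, namely PSMC3IP and PSME3IP1 and the antisense transcripts PSMA3-AS1, PSMB8-AS1, PSMD6-AS2 and PSMG3-AS1.

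The proteasome degrades proteins that have been tagged with ubiquitin. Its barrel-shaped core, the 20S particle, is built from stacked rings of alpha and beta subunits, and the proteolytic sites lie on a few of the beta subunits inside the barrel. The 19S cap, made of a base with a ring of ATPases and a lid, recognizes, unfolds and feeds in the substrate, while other activators and inhibitors can take the place of the cap or hold the core back. In blood and immune cells, interferon can exchange the catalytic beta subunits for the immunoproteasome subunits, and in many cell types the transcription factor NFE2L1 raises proteasome genes together when proteolysis is impaired. Cells of blood cancers such as multiple myeloma are sensitive to drugs that block the core.

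RUNX1::ERG joins the DNA-binding domains of RUNX1 and of the ETS family factor ERG, so the starts of the proteasome genes were searched for the short sequences that such factors are known to bind. RefSeq promoter windows of GRCh38.p14, from 250 bases before to 50 bases after the start, were matched for 42 of the 48 members and gave 51 windows; PSMA7, PSMB1, PSMB6, PSMB7, PSMD4 and PSMG3 had no entry. The ETS core CCGGAAG, on either strand, was present in 15 of the 51 windows (29.4%), against 10.3% of all 35116 windows of this length and 16.3% of the 16319 windows of genes tested here. The 51 windows include those of PSMA8, PSMB8, PSMB9 and PSMB11, which had too few counts to be tested, and PSMA8 was among those with an ETS core. The RUNX core TGTGGT was present in 6 windows (11.8%), against 13.1% of all windows and 10.1% of those of tested genes. For each role in the proteasome, the 120 bases before the start are shown for the tested member with the smallest p whose ETS core lies whole in that stretch, which left 4 genes. They are written 5′ to 3′ along the gene with the ETS core, as CCGGAAG or its reverse complement CTTCCGG, in capitals.
PSMC2, an ATPase of the base, chr7:103347523-103347642, plus strand: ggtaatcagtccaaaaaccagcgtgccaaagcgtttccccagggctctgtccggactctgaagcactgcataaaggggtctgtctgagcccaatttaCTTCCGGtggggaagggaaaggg
PSMF1, an inhibitor of the core, chr20:1118482-1118601, plus strand: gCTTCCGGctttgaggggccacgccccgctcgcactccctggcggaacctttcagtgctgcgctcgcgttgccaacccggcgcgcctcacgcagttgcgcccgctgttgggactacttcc
PSMG4, an assembly factor, chr6:3258827-3258946, plus strand: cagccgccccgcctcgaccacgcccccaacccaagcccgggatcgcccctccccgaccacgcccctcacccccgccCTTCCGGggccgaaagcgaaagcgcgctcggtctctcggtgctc
PSMD13, a lid subunit, chr11:236856-236975, plus strand: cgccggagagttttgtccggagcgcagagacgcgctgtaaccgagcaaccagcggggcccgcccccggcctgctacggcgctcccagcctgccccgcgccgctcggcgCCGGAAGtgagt
The marked core began 23 bases before the start in PSMC2, 119 in PSMF1, 44 in PSMG4 and 12 in PSMD13. A further ETS core, not whole in the stretch shown, began at position -5 relative to the start in PSMF1 and at position 9 in PSMC2. The 4 genes were picked by p, so they need not stand for all members with an ETS core. PSMA6, with both RUNX1::ERG libraries above both empty vector libraries, also had this core, as did PSME4, whose groups overlapped. These matches describe the letters only, and no binding was measured in this series.

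Motifs of other regulators were counted in the same windows. The antioxidant response element TGACTCAGC, which NFE2L1 is known to bind, was in 0 of the 51 windows and in 0.561% of all windows, and its wider form TGANNNNGC, which includes it, was in 32 (62.7%) against 41.8% of all windows and 42.6% of those of tested genes. The untested PSMA8, PSMB8, PSMB9 and PSMB11 each had the wider form. The CCAAT box CCAAT was in 20 windows (39.2%), against 34.6% and 34.7%. The E-box CACGTG, bound by MYC with its partners, was in 3 windows (5.88%), those of PSMB3, PSMD9 and PSME3, against 7.26% and 9.22%.

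The counts summed to between 59695387 and 82352144 per library, and proteasome genes took between 0.781% and 0.836% of them. A count of 0 allows up to 3 counts, or at most 0.0503 CPM (counts per 1000000 counts of the library), and this covers counting error only. Of the counts from 1 to 10, 66.7% to 68.9% were even in each library, so both mates of a read pair may have been counted and the number of independent fragments may be lower. ERG went from 4 counts in both empty vector libraries to 80443 and 27218 in RUNX1::ERG replicates 1 and 2, and RUNX1 stood at 78.6 and 49.0 CPM against 786 and 400, so both parts of the fusion followed the labels. The erythroid markers of K562 were present, with GATA1 at 256 to 302 CPM, but not all were level between the groups. In the edgeR test described below, 1 of the 8 listed was called, against 4.79% of all tested genes. This was EPOR, with 41.6 CPM in both empty vector libraries and 89.1 and 62.8 CPM in RUNX1::ERG. HBZ and TFRC had log2 fold changes of -0.59 and -0.57. The other markers were above 0, among them ALAS2 at 0.45 and HBG2 at 0.27. Of the 15 markers of other cells, 10 could be tested and 3 were called higher in RUNX1::ERG, against 4.79% of all tested genes called in either direction. These were CD14, LYZ and COL1A1 (at most 22.0 CPM). None was called lower, but 3 of the 10 had a log2 fold change below 0, among them CD3D (-0.61) and EPCAM (-0.46). The summed T cell markers went from 32.9 and 34.9 CPM in the empty vector to 21.0 and 23.9 CPM in RUNX1::ERG. The summed level without the epithelial markers, which K562 expressed, was 48.3 and 52.7 CPM in the empty vector and 69.2 and 67.8 CPM in RUNX1::ERG. MS4A1 was at 0 throughout. The part of such cells in the values below was not tested.

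Whether RUNX1::ERG changed the transcripts of the proteasome was asked in 1 comparison, RUNX1::ERG against the empty vector, by the quasi-likelihood test of edgeR, with p-values adjusted by the Benjamini-Hochberg method over 15394 genes. No proteasome gene passed the threshold of 0.05: 0 of the 44 tested members were called, against 737 of all tested genes (4.79%), and against 3.55% of the 6274 genes whose mean was at or above that of the lowest tested member. DESeq2 and limma voom also called 0. At an unadjusted p under 0.05 there were 3 of 44 (6.82%), against 18.0% of all tested genes, namely the assembly factors PSMG3 and PSMG4 with lower values and the activator subunit PSME1 with a higher value in RUNX1::ERG. The 95% intervals of all 44 fitted log2 fold changes lay within 1 of 0, the outermost bounds being -0.96 and 0.73, and 26 lay within 0.5. The other 4 members, PSMA8, PSMB8, PSMB9 and PSMB11, had at most 3 counts in any library and did not enter the test.

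The values of the tested members were close together in size and mostly on one side. The log2 fold change was below 0 for 37 of 44 (84.1%), against 50.2% of all tested genes, with a median of -0.11 (all tested genes -0.00) and a range of -0.49 to 0.37. Scaled by library totals, 30 of 44 were below 0, with a median of -0.06 beside 0.04 for all tested genes. Scaled by DESeq2's size factors, 39 of 44 were below 0, with a median of -0.12 beside -0.01 for all tested genes. The median absolute log2 fold change was 0.12, against 0.24 over all tested genes and 0.17 over those at a like level. With WTS of bulk RNA, fewer expressing cells and less RNA per cell cannot be told apart. The RUNX1::ERG libraries were both lower than either empty vector library for 18 members (40.9%), against 22.1% of all tested genes, and above them for 4 (9.09%), against 25.1%. For the other 22 members the groups overlapped. The members share libraries and scaling and are not independent replicates, so these counts are given as a description.

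**Figure D1:**
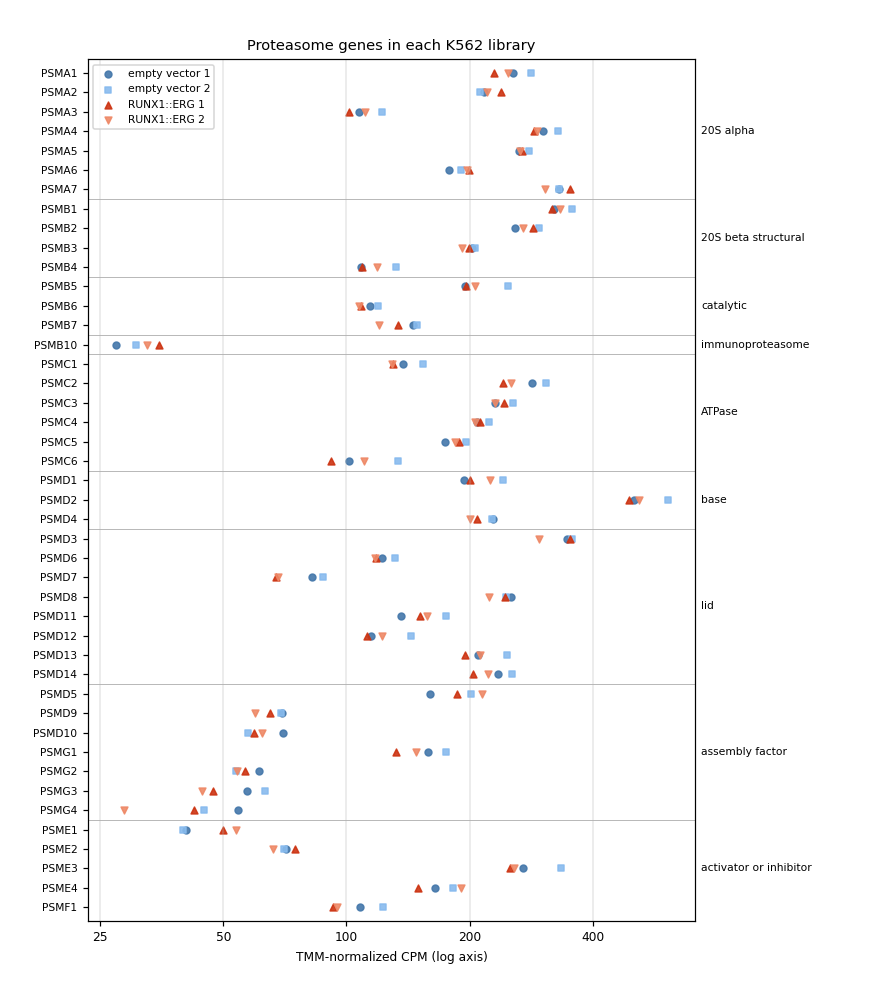
Level of each tested proteasome gene in every library, as TMM-normalized CPM on a log axis, with genes grouped by role; circles and squares are empty vector replicates 1 and 2 and triangles pointing up and down are RUNX1::ERG replicates 1 and 2. The 4 libraries of a gene lie close together beside the spread between genes, and empty vector replicate 2 is the highest library for 30 of the 44 genes.

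Empty vector replicate 2 stood apart for these genes. It was the highest library for 30 of 44 members (68.2%), against 24.8% of all tested genes, and it was above empty vector replicate 1 for 35 members. The median log2 ratio of empty vector replicate 2 to replicate 1 was 0.13 over the members and -0.02 over all tested genes, whereas the ratio of RUNX1::ERG replicate 2 to replicate 1 had a median of 0.01. The summed level of all members was 7875 and 8683 CPM in empty vector replicates 1 and 2, and 7719 and 7773 CPM in RUNX1::ERG replicates 1 and 2. The SD of this sum was 572 in the empty vector and 38.0 in RUNX1::ERG (n = 2 each), beside means of 8279 and 7746 CPM, so the difference between the group means was smaller than the SD within the empty vector. Set against empty vector replicate 1 alone, both RUNX1::ERG libraries were lower for 20 members (45.5%, against 37.2% of all tested genes). Set against replicate 2 alone, they were lower for 34 (77.3%, against 36.0%). Without empty vector replicate 2 the median log2 fold change was -0.03, with 27 of 44 below 0. Without replicate 1 it was -0.16, with 38 of 44 below 0.

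**Figure D2:**
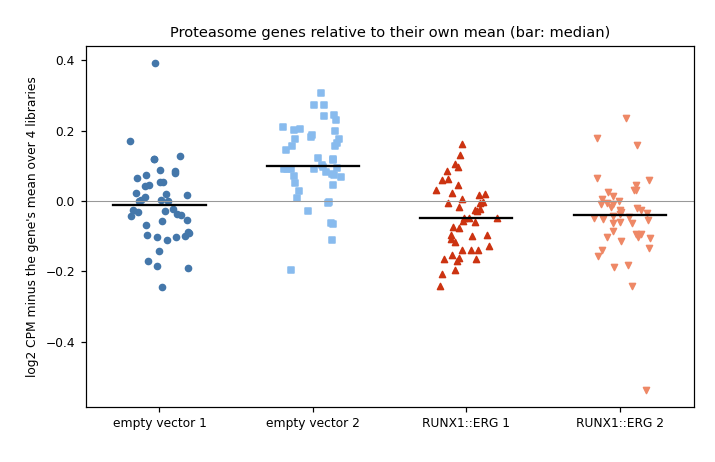
Each point is a tested proteasome gene, and the vertical axis gives its log2 CPM in a library minus its mean over the 4 libraries; horizontal bars mark the medians. The medians are -0.01 and 0.10 in empty vector replicates 1 and 2 and -0.05 and -0.04 in RUNX1::ERG replicates 1 and 2, and 37 of the 44 genes lie above their own mean in empty vector replicate 2.

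The alpha subunits form the outer rings of the core and the gate through which substrates enter. Of the 8 genes, 7 were tested. For 5 of these the log2 fold change was below 0, against 50.2% of all tested genes. PSMA5 and PSMA7 among the 5 were above 0 when scaled by library totals, which put the median of all tested genes at 0.04. The median over the 7 genes was -0.03. PSMA1 (chr11:14526420-14665181, GRCh37), with the smallest p among them, stood at 256 and 282 CPM in the empty vector and at 230 and 249 CPM in RUNX1::ERG. Both RUNX1::ERG libraries were thus the lower ones, but the log2 fold change of -0.17 ± 0.15 (SE) did not pass the test (adjusted p = 0.631). PSMA2 and PSMA6 were the 2 alpha genes with both RUNX1::ERG libraries above both empty vector libraries, as were 25.1% of all tested genes. The log2 fold changes of PSMA2 and PSMA6 were 0.10 and 0.11. PSMA8, the alpha subunit of the testis, had 0 counts in 3 libraries and 3 counts in RUNX1::ERG replicate 2.

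Among the beta subunits without a proteolytic site, PSMB1, PSMB2, PSMB3 and PSMB4, log2 fold changes ran from -0.08 to 0.01. PSMB4 had the smallest p, with 109 and 132 CPM in the empty vector and 109 and 119 CPM in RUNX1::ERG. Its 2 RUNX1::ERG libraries lay between the 2 empty vector libraries (log2 fold change -0.08 ± 0.16 SE, adjusted p = 0.870). The summed level of the 4 genes in RUNX1::ERG was 97.1% of that in the empty vector.

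The 3 proteolytic subunits of the standard core all had a log2 fold change below 0, against 50.2% of all tested genes. That of PSMB5 was 0.05 without empty vector replicate 2. PSMB5, which carries the chymotrypsin-like site and is the main target of proteasome inhibitor drugs, stood at 195 and 249 CPM in the empty vector and at 196 and 206 CPM in RUNX1::ERG. The RUNX1::ERG libraries were level with empty vector replicate 1 and below replicate 2, so the groups overlapped (log2 fold change -0.14 ± 0.16 SE, adjusted p = 0.739). PSMB6, with the caspase-like site, had 114 and 119 CPM against 109 and 107 CPM. PSMB7, with the trypsin-like site (chr9:127115744-127177723), had 145 and 149 CPM against 134 and 120 CPM. For PSMB6 and PSMB7 the groups did not overlap, with both RUNX1::ERG libraries the lower ones, as for 22.1% of all tested genes. Their log2 fold changes were -0.11 (adjusted p = 0.775) and -0.21 (adjusted p = 0.543). Together the 3 genes reached 485 ± 44.5 CPM in the empty vector and 436 ± 3.80 CPM in RUNX1::ERG (SD, n = 2 each), which is 89.9%.

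Of the immunoproteasome subunits, which replace the proteolytic ones after interferon, only PSMB10 could be tested. PSMB10, the counterpart of PSMB7, stood at 27.2 and 30.5 CPM in the empty vector and at 34.8 and 32.5 CPM in RUNX1::ERG. Both RUNX1::ERG libraries were above both empty vector libraries, in the opposite direction to PSMB7, and the log2 fold change of 0.22 ± 0.18 (SE) did not pass the test (adjusted p = 0.588). PSMB10 had the lowest mean of the tested members and shares 640 exonic bases with a GENCODE gene on its own strand. PSMB11, which belongs to the thymoproteasome of the thymus, had 2 counts in RUNX1::ERG replicate 1 and 0 elsewhere.

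PSMB8 and PSMB9, the counterparts of PSMB5 and PSMB6, were listed at 0 apart from 2 counts of PSMB9 in RUNX1::ERG replicate 1. Both lie side by side in the major histocompatibility region of chromosome 6 (PSMB8 chr6:32808494-32812456, PSMB9 chr6:32811913-32827628, GRCh37), and counts were near 0 over that whole region. In a window from 28811913 to 33311913, drawn after these values were seen, there were 155 protein-coding genes, of which 0 had a mean over 10 CPM, the highest being 6.04 CPM, and 68 (43.9%) had 0 counts in all 4 libraries. Of the 18585 other protein-coding genes placed on GRCh37, 47.2% were over 10 CPM and 13.0% had no count. The low counts included genes that every cell uses. RPS18, a protein of the small ribosomal subunit, had 35 to 47 counts per library, and TUBB, a beta tubulin, had 23 to 50. BAK1, which lies 728 kb from the start of PSMB9 and outside the window, had 35.0 to 43.1 CPM. The counts of PSMB8 and PSMB9 therefore do not show whether these genes were expressed, and no comparison of the immunoproteasome with the standard core was made beyond PSMB10.

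**Figure D3:**
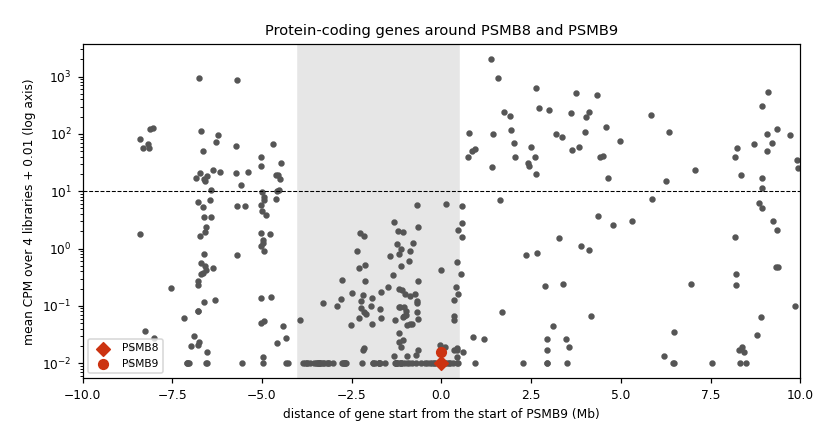
Mean CPM over the 4 libraries plus 0.01 (log axis) of each protein-coding gene against the distance of its start from that of PSMB9 in Mb. Grey marks the window described in the text, in which all 155 genes lie under the dashed line at 10 CPM; PSMB8 (diamond) and PSMB9 (circle) sit at the bottom of the plot.

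In the 19S cap, the 6 ATPases that unfold substrates had a median log2 fold change of -0.11. Of the 6, 5 were below 0, against 50.2% of all tested genes. PSMC3 among the 5 was above 0 when scaled by library totals, which put the median of all tested genes at 0.04. PSMC2 (chr7:102969017-103010793), whose promoter is printed above, stood at 284 and 307 CPM in the empty vector and at 241 and 253 CPM in RUNX1::ERG. The groups did not overlap, and the log2 fold change of -0.26 ± 0.15 (SE) did not pass the test (adjusted p = 0.400). PSMC1 was the other ATPase gene with lower values in both RUNX1::ERG libraries (log2 fold change -0.16), a pattern shown by 22.1% of all tested genes. PSMC1 shares 4667 exonic bases with NRDE2 on the opposite strand and has 13 named pseudogenes, so its reads may be mixed. PSMC6 had 102 and 134 CPM against 91.6 and 111 CPM, and its groups overlapped.

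The base subunits that are not ATPases include PSMD1 and PSMD2, on which substrates and shuttle proteins dock, and PSMD4, a ubiquitin receptor. PSMD4 stood at 228 and 226 CPM in the empty vector and at 208 and 200 CPM in RUNX1::ERG (log2 fold change -0.15 ± 0.15 SE, adjusted p = 0.662). PSMD2 had the highest CPM of all members, with 505 and 610 CPM against 491 and 521 CPM (log2 fold change -0.14). The 2 empty vector libraries of PSMD2 differed from each other by more than either RUNX1::ERG library did from empty vector replicate 1.

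All 8 lid genes had a log2 fold change below 0, against 50.2% of all tested genes, with a median of -0.13. In 4 of them both RUNX1::ERG libraries were the lowest, against 40.9% of all tested members and 22.1% of all tested genes. PSMD7 (chr16:74330712-74340186), the partner of the deubiquitinase PSMD14, stood at 82.2 and 87.6 CPM in the empty vector and at 67.2 and 68.0 CPM in RUNX1::ERG. The replicates of each group were closer to each other than to the other group. The log2 fold change was -0.33 ± 0.15 (SE), with an unadjusted p of 0.0568 and an adjusted p of 0.298 by edgeR. PSMD14, which removes ubiquitin from substrates, had 235 and 254 CPM against 203 and 222 CPM (log2 fold change -0.20, adjusted p = 0.550). PSMD11 was the lid gene nearest to 0, at -0.01. It was 0.04 when scaled by library totals, beside a median of 0.04 for all tested genes. Without empty vector replicate 2 it was 0.19 and PSMD12 was 0.03.

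The assembly factors, which build the core and the base but leave the finished particle, held the 2 lowest fitted log2 fold changes over all 4 libraries. PSMG3 (chr7:1606968-1610641), a chaperone of the alpha ring, stood at 57.2 and 63.3 CPM in the empty vector and at 47.1 and 44.3 CPM in RUNX1::ERG. Its groups did not overlap, and the log2 fold change was -0.40 ± 0.16 (SE), with an unadjusted p of 0.0323 from edgeR and an adjusted p of 0.222. PSMG4 (chr6:3231637-3303607), which pairs with PSMG3 and whose promoter is printed above, had 54.4 and 44.8 CPM against 42.3 and 28.5 CPM. RUNX1::ERG replicate 2 was far below the other libraries, and replicate 1 was close to empty vector replicate 2. The log2 fold change of PSMG4 was -0.49 ± 0.21 (SE), with an adjusted p of 0.262 by edgeR. It rested on single libraries: it was -0.24 without RUNX1::ERG replicate 2, -0.80 without RUNX1::ERG replicate 1, -0.35 without empty vector replicate 1 and -0.62 without empty vector replicate 2, while that of PSMG3 stayed between -0.48 and -0.33. PSMG4 shares 1388 exonic bases with SLC22A23 on the opposite strand.

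The other chaperone pair of the core, PSMG1 and PSMG2, gave log2 fold changes of -0.26 and -0.06. PSMG1 had 158 and 176 CPM in the empty vector and 132 and 148 CPM in RUNX1::ERG, without overlap (adjusted p = 0.446). Of the chaperones of the base, PSMD9 had -0.16 and PSMD10, also known as gankyrin, -0.07. PSMD5 had 160 and 202 CPM against 187 and 214 CPM and overlapping groups (log2 fold change 0.15, adjusted p = 0.728). Without empty vector replicate 1 the value of PSMD5 was -0.01, and those of PSMG2 and PSMD10 were 0.03 and 0.08.

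Among activators and inhibitors, PSME1 and PSME2 encode the subunits of one ring-shaped activator that interferon induces. PSME1 (chr14:24605372-24608176) stood at 40.5 and 39.8 CPM in the empty vector and at 49.8 and 53.6 CPM in RUNX1::ERG. The groups were well apart, and the log2 fold change of 0.37 ± 0.16 (SE) was the highest of all members, with an unadjusted p of 0.0477 from edgeR and an adjusted p of 0.272. PSME2, its partner, stood at 71.2 and 70.2 CPM against 74.7 and 66.0 CPM, a log2 fold change of -0.01, with RUNX1::ERG replicate 1 the highest and replicate 2 the lowest library. PSME2 has 6 named pseudogenes, none of them in the count table.

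PSME3, the subunit of a related activator in the nucleus, stood at 270 and 334 CPM in the empty vector and at 251 and 257 CPM in RUNX1::ERG. Its groups did not overlap, but RUNX1::ERG was nearer to empty vector replicate 1 than that library was to replicate 2 (log2 fold change -0.25, adjusted p = 0.468). PSME4, an activator with roles in chromatin and DNA repair, had 165 and 182 CPM against 149 and 191 CPM (log2 fold change -0.03). PSMF1 (chr20:1093883-1170059), an inhibitor of the core in vitro, stood at 108 and 123 CPM in the empty vector and at 92.8 and 94.6 CPM in RUNX1::ERG. Its groups did not overlap, and its log2 fold change of -0.30 ± 0.16 (SE) had an unadjusted p of 0.0809 from edgeR and an adjusted p of 0.356.

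**Figure D4:**
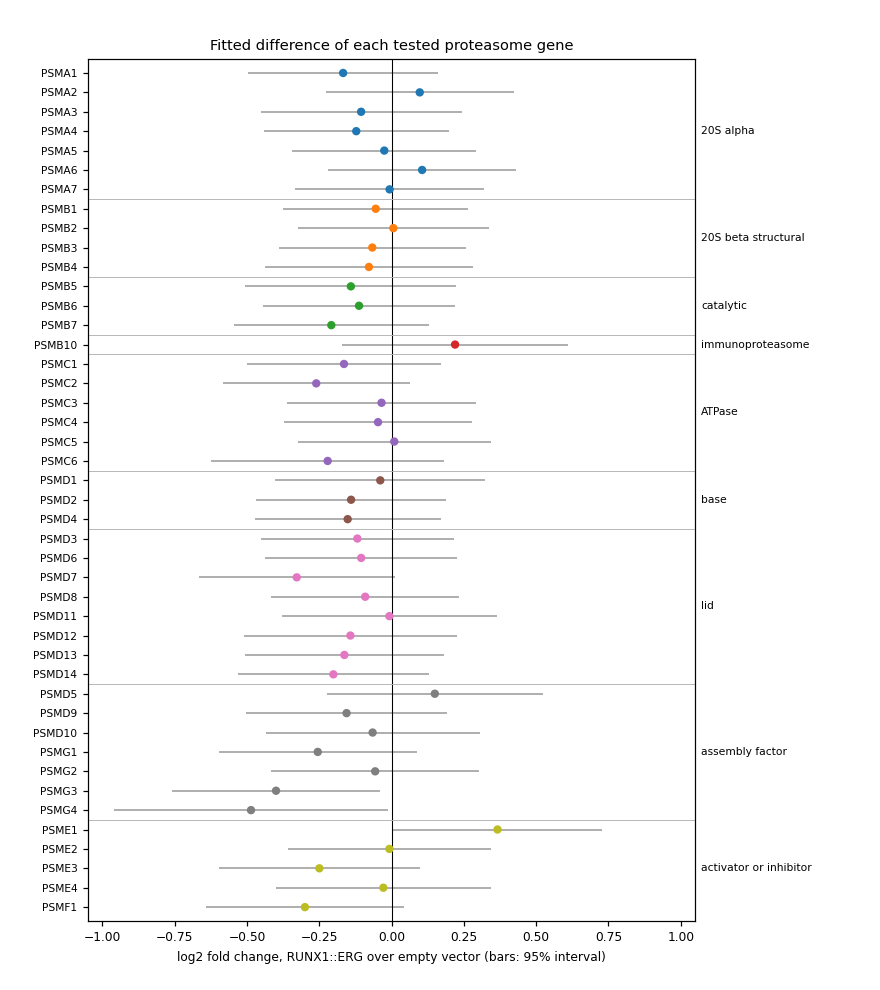
Fitted log2 fold change of each tested proteasome gene, RUNX1::ERG over empty vector, with its 95% interval as a bar, grouped and coloured by role. Of the 44 intervals 41 contain 0; PSMG3 and PSMG4 lie below it and PSME1 above it, none past the adjusted threshold.

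By role, the summed level in RUNX1::ERG as a share of the empty vector was 97.6% for the alpha subunits, 92.3% for the ATPases, 92.0% for the other base subunits, 91.2% for the lid, 92.5% for the assembly factors and 91.2% for the activators and inhibitors. These sums carry the high values of empty vector replicate 2, which exceeded replicate 1 in each of these groups. For the lid the sums were 1498 and 1640 CPM in the empty vector and 1444 and 1418 CPM in RUNX1::ERG, and for the alpha subunits 1655 and 1746 CPM against 1677 and 1643 CPM. Differences between roles were not tested.

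Levels were compared between subunits per kb of length, although the core holds its subunits in equal number. Per kb of all annotated exons joined, the mean empty vector level of the 14 subunits of the standard core ran from 25.6 CPM per kb for PSMA2 to 189 for PSMA7, a ratio of 7.37. Per kb of the canonical transcript, a length chosen after the data were seen, it ran from 62.5 for PSMB2 to 380 for PSMB1, a ratio of 6.08. The genes at both ends thus changed with the length used, while PSMA7, PSMB1 and PSMB3 were in the upper part under both. On either length PSMB10 was below the 14 standard subunits. The spread between subunits was much wider than any difference between the groups.

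**Figure D5:**
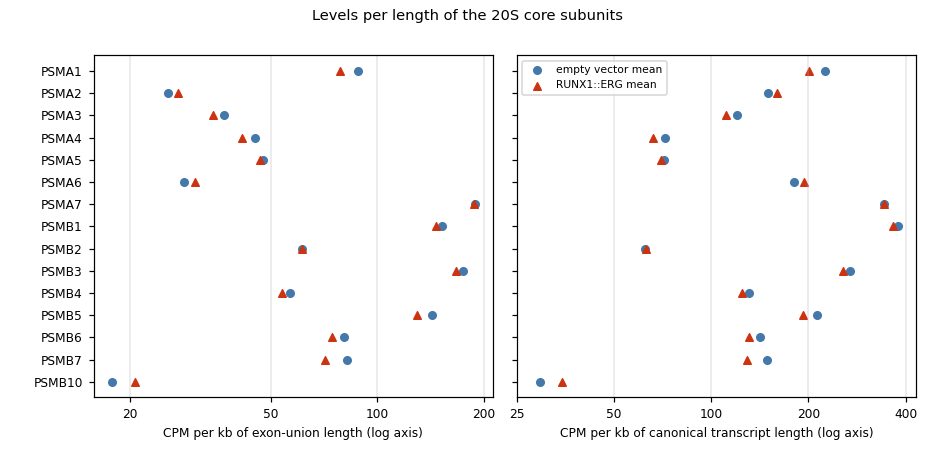
Mean CPM per kb of each core subunit in the empty vector (circles) and RUNX1::ERG (triangles) on log axes, by joined exon length on the left and by canonical transcript length on the right. Subunits differ by several fold while the 2 groups of each subunit lie close together, and PSMB10 is the lowest in both panels.

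MYC, which regulates growth genes including some of the proteasome, was lower in RUNX1::ERG (log2 fold change -1.11 ± 0.15 SE, adjusted p = 0.00201 by edgeR), with 301 and 289 CPM in the empty vector and 134 and 140 CPM in RUNX1::ERG. Of the tested proteasome genes, 14 were listed as MYC targets, by a list written from general knowledge. Their median log2 fold change was -0.08, with 11 of 14 below 0 and 6 with both RUNX1::ERG libraries the lower ones. The 30 other members had a median of -0.11, with 26 below 0 and 12 with both RUNX1::ERG libraries the lower ones. No member of either kind passed the test. Among all 44 tested members 84.1% were below 0, against 50.2% of all tested genes. Both RUNX1::ERG libraries were the lower ones for 40.9% of these members, against 22.1% of all tested genes.

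The genes around the proteasome were read from 6 lists of 80 genes, of which 77 were tested. Of these 0 passed the threshold in either direction in edgeR, against 4.79% of all tested genes, and 0 in DESeq2 and limma voom. By edgeR 3 had an unadjusted p under 0.05, against 18.0% of all tested genes. For 44 of the 77 the log2 fold change was below 0, against 50.2% of all tested genes. The 13 other proteasome proteins had a median of -0.03; POMP, which matures the core, stood at 165 and 163 CPM in the empty vector and 155 and 149 CPM in RUNX1::ERG (log2 fold change -0.11, adjusted p = 0.785), and ADRM1, a ubiquitin receptor of the cap, at 151 and 213 CPM against 195 and 167 CPM (log2 fold change -0.01). The 10 genes of NFE2L1 regulation had a median of 0.04, with 4 below 0 and a range of -0.46 to 0.45. Both RUNX1::ERG libraries were the lower ones for NFE2L1, NFE2L2, NFE2L3 and DDI2, and the higher ones for MAFF, MAFG and BACH1. The respective shares over all tested genes were 22.1% and 25.1%. NFE2L1 itself had 205 and 181 CPM against 152 and 164 CPM, without overlap (log2 fold change -0.29 ± 0.15 SE, adjusted p = 0.374), and its relative NFE2L2, which governs the antioxidant response, had -0.46 (unadjusted p = 0.0204, adjusted p = 0.174 by edgeR).

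For ubiquitin and its activation the median was -0.04 over 16 genes, for unfolding and shuttling factors -0.04 over 13, and for deubiquitinases -0.07 over 14. The interferon and peptide transport list had a median of 0.25, with 9 of 11 tested genes above 0. Over all tested genes the median was -0.00 and 50.2% were below 0. Of the 9 genes, NLRC5 had only 14 to 46 counts per library and ERAP2 at most 2.18 CPM. Within the list, ERAP1, which trims peptides in the endoplasmic reticulum, had 65.0 and 64.8 CPM in the empty vector and 91.6 and 91.5 CPM in RUNX1::ERG (log2 fold change 0.50 ± 0.15 SE, adjusted p = 0.0987). The 3 genes of the list that lie in the chromosome 6 window were near 0 like PSMB8 and PSMB9. TAP1 was listed at 0, TAPBP had 10 to 14 counts, and TAP2 had 36 and 44 counts in the empty vector and 12 and 22 in RUNX1::ERG (unadjusted p = 0.0327, adjusted p = 0.224 by edgeR).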

How the data were processed

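Poly(A)-enriched RNA of K562 cells was sequenced with paired-end reads. Per the submitters' processing notes the reference was hg19 and the tools were HISAT2 2.2.1 and featureCounts 2.0.1; the annotation and the strand and read-pair settings are not given in the sources used here. The authors deposited raw counts per gene and library, with no normalization, listed by NCBI gene number. Numbers were matched to symbols of a RefSeq table of GRCh38.p14 (92.2% of 25702 genes), and positions and lengths are from GENCODE v44 lifted to GRCh37. Counts were analysed in R 4.3.3 by edgeR 4.0.16 with TMM scaling, its default filter on low counts, the quasi-likelihood test (group as the only term) and Benjamini-Hochberg adjustment over all tested genes. Library values are TMM-scaled CPM, and ± gives the SE of a fold change or the SD of a level. An exact permutation test of 2 libraries against 2 cannot go below p = 0.333, so p-values rest on the spread estimated across genes. Alternatives were DESeq2 1.42.0, limma 3.58.1 voom, other scalings and filters, halved counts, a replicate block and each library left out.

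Named genes were the members with the smallest p and the largest fold change in each role, the catalytic, immunoproteasome, activator and inhibitor genes whatever their values, the members under the filter, RUNX1, ERG, MYC, NFE2L1, POMP and ADRM1, and any pathway gene past the threshold. Other members and pathway genes named in the text, and the genes of the chromosome 6 window, were chosen after their values were seen. The members and lists were chosen with earlier results of these data known. Of the 48 members, 22 share exonic bases with another GENCODE gene and 17 have named pseudogenes, none of which is in the count table, so their reads may be mixed.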

Additional observations from a re-analysis of the deposited data

How the results depend on the processing

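No proteasome gene passed the threshold under 11 of the 12 alternatives, and 27 of the 44 tested members kept the sign of their log2 fold change under all 12, 23 of them below 0. The 17 others changed sign under some alternative; beyond the alternatives' own construction the cause was not tested. With library totals in place of TMM, 103 genes were lower, the median of all tested genes moved to 0.04 and that of the members to -0.06 (30 of 44 below 0), and log2 fold changes became 0.012 for PSME4, 0.016 for PSMA5, 0.034 for PSMA7, 0.0076 for PSMC3, 0.0040 for PSMD1, 0.037 for PSMD11 and 0.033 for PSME2. PSMB2 and PSMC5 became -0.0065 and -0.0031 with DESeq2's size factors, -0.0056 and -0.0023 with no filter, and -0.0065 and -0.0031 in DESeq2. PSMD11 became 0.0015 in limma voom. With no filter 1500 genes were called, 962 higher and 538 lower; DESeq2 called 1204, 405 of them lower.

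With a replicate block there were 1733 calls (1082 higher, 651 lower), PSMD11 became 0.0036, and 1 proteasome gene passed, PSMG4 (log2 fold change -0.51 ± 0.14 SE, adjusted p = 0.0489 in edgeR), as did 1 pathway gene, ERAP1 (adjusted p = 0.0300). The labels do not say that equal numbers mark a shared batch; deviations of equal-numbered libraries correlated at r = 0.27 over 15394 genes, and 2 pairs cannot decide the pairing.

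Leaving out each library in turn, with 1 residual degree of freedom and the lone library assumed to vary like the other group, gave 286 to 1336 calls, 228 to 922 higher and 58 to 602 lower, and 0 proteasome genes. The fewest came without RUNX1::ERG replicate 1, the most calls and the most lower calls without empty vector replicate 2, and the most higher calls without empty vector replicate 1. Members with both RUNX1::ERG libraries below the empty vector, an alternative added after the data were seen, numbered 20 without empty vector replicate 2 and 34 without replicate 1. The log2 fold change ran from -0.092 to 0.10 for PSMB2, -0.15 to 0.033 for PSMG2, -0.076 to 0.094 for PSMC5, -0.013 to 0.33 for PSMD5, -0.20 to 0.077 for PSMD10, -0.23 to 0.14 for PSME4, -0.069 to 0.013 for PSMA5, -0.13 to 0.016 for PSMB1, -0.22 to 0.067 for PSMB4, -0.31 to 0.046 for PSMB5, -0.11 to 0.038 for PSMC3, -0.19 to 0.13 for PSMD1, -0.27 to 0.0011 for PSMD2, -0.18 to 0.19 for PSMD11, -0.30 to 0.029 for PSMD12, -0.11 to 0.076 for PSMA7 and -0.10 to 0.065 for PSME2.

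With 2 libraries per group the intervals of the members reach almost 1 on the log2 scale, so smaller changes were not detectable for every gene, and the counts near PSMB8 and PSMB9 do not allow a statement on these genes.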
